A study of Mus musculus with 4 samples.

Results

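Interferon-induced genes and the Ifi200 cluster were described in cardiac endothelial cells of adult mice, which form the inner lining of the blood vessels and cavities of the heart. The group is a list of 44 genes, 6 of the Ifi200 family and 38 other genes that interferons induce, and a gene was measured where a non-control array probe carried an accession that RefSeq assigns to its current or older symbol. By this rule 41 of the 44 genes had a matched probe, among 18353 genes with one on the array, and 40 of them were tested, among 13624 genes tested. No probe matched Ifi203, Mx1 or Mx2, which were not analysed here, and Aim2 had a probe that was not tested. Mnda is listed by RefSeq as Ifi211. A gene with several probes was counted through the probe with the highest mean level. The list was drawn up with earlier results of these arrays in view, the values of Ifi202b on the control arrays above all, so the gap between those arrays is given as a description and has no test.

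The samples were 2 control arrays, labelled wild type, and 2 arrays labelled G2-EC-KO, whose labels also say Gata2 knock out. Each array held the RNA of 1 sample of cardiac endothelial cells on an Agilent 1-colour design. The labels say adult and give neither strain, sex, the driver of the deletion nor whether replicates came from separate or pooled animals, so the p-values reflect only how far these samples differ, a spread that may be technical. A level here is the log2 of the processed spot signal minus the 75th percentile of that array, so that 0 is the signal of a probe at that percentile. A change is the mean of the 2 G2-EC-KO arrays minus the mean of the 2 control arrays on this log2 scale, and a probe is called well above background where the scanner software marked it so. Pairs of levels are given with replicate 1 first.

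Interferons are secreted proteins that cells release on sensing viral nucleic acids. They bind receptors at the cell surface, and Janus kinases then phosphorylate STAT proteins, which enter the nucleus with IRF9 and bind interferon-stimulated response elements in the promoters of many antiviral genes, while interferon gamma acts at gamma-activated sites. The Ifi200 genes lie in a cluster and encode proteins with pyrin and HIN domains, some of which bind DNA in the nucleus or the cytosol. Endothelial cells carry interferon receptors and respond to both types of interferon.

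The promoters of these genes were read from the RefSeq promoter table of assembly GRCm38.p6, which holds 44 promoters of 35 of the listed genes. The letters GAAANNGAA, the core of an interferon-stimulated response element, were searched on both strands (the other strand reads TTCNNTTTC), and overlapping matches were counted separately. In the window from 250 bases before to 50 bases after the start, 23 of the 44 promoters (52.3%) held a match, against 8.56% of all 32851 promoters in the table. A gamma-activated site, TTCNNNGAA, which is its own reverse complement, was in 11 of the 44 (25%) against 8.3% of all promoters. These matches describe letters, and binding was not measured. Some listed starts are not the gene start of RefSeq, so a lack of matches holds for the listed windows only.

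The 200 bases before the start are shown for genes of several roles, with matches to GAAANNGAA or its reverse in capitals, 5′ to 3′ on the strand of the gene. Isg15 and Ifit1 are shown for runs of matches, Ifit3 and Gbp2 as further members with matches, Mnda and Ifi205 as Ifi200 genes with 1 match each, Ifi202b for its gap between the control arrays and Ifi44 for its change between the groups. In GRCm38.p6 the stretches lie at chr4:156200819-156201018 (minus strand) for Isg15, chr19:34640689-34640888 (plus strand) for Ifit1, chr19:34583329-34583528 (plus strand) for Ifit3, chr3:142620463-142620662 (plus strand) for Gbp2, chr1:173913047-173913246 (minus strand) for Mnda, chr1:174031756-174031955 (minus strand) for Ifi205, chr1:173982845-173983044 (minus strand) for Ifi202b and chr3:151749911-151750110 (minus strand) for Ifi44.
Isg15: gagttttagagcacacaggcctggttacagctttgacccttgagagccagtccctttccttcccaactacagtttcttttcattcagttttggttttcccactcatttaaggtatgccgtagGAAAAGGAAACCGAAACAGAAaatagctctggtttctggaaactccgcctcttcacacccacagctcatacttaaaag
Ifit1: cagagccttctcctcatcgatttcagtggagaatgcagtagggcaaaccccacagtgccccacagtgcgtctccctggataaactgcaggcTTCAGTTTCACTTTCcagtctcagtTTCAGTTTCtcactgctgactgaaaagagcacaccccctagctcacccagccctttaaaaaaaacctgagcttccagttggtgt
Ifit3: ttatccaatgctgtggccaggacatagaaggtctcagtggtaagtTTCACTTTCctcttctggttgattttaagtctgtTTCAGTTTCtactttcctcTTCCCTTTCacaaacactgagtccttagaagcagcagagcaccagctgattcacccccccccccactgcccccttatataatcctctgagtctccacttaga
Gbp2: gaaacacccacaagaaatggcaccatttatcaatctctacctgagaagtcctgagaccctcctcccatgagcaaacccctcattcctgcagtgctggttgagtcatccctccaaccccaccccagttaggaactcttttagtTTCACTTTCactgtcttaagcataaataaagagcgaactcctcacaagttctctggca
Mnda: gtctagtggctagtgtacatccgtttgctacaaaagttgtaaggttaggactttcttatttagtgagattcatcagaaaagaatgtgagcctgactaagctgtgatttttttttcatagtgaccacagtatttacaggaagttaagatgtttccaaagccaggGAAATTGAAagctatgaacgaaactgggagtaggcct
Ifi205: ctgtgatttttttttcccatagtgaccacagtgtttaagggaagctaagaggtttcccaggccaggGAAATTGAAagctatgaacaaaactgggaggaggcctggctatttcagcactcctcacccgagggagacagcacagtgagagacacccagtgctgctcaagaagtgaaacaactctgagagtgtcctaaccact
Ifi202b: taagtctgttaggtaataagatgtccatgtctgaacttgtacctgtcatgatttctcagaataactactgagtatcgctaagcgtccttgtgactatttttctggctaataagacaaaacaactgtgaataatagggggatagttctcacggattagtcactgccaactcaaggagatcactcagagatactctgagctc
Ifi44: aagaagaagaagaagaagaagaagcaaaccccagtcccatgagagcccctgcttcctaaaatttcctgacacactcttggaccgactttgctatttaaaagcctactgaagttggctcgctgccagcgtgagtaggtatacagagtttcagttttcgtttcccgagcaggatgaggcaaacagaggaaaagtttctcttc
In the Isg15 stretch 3 overlapping matches began at positions -78, -72 and -66, counted from -1 at the last base before the start, with the letters GAAAAGGAAACCGAAACAGAA in one run. In Ifit1 the matches began at -109, -103 and -84 and in Ifit3 at -155, -121 and -102, all on the opposite strand. Gbp2 had 1 match, at -58. In Mnda and Ifi205 the match read GAAATTGAA in both, at -37 and -134. The listed starts of Mnda and Ifit3 are not the gene starts of RefSeq, so their positions are not comparable with the others. The Ifi202b stretch held no match. The Ifi44 stretch held none wholly inside it, while 1 match in the Ifi44 promoter began at -3 and ran past the start. The Ifi205 promoter held a further match outside the stretch, at 25, counted from 1 at the first base after the stretch.

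By role, an interferon-stimulated core was in a listed promoter of 4 of 4 GTPases, 2 of 2 genes of the ISG15 system, 6 of 8 sensors, 7 of 12 effectors, 2 of 4 Ifi200 genes and 1 of 4 transcription factors, counting genes that have both a probe and a promoter entry. In the 200 bases before the start alone, 17 of 44 promoters (38.6%) held the core, against 5.57% of all promoters.

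The labelled knockout was checked first at its target. At its brighter probe Gata2 had levels of 1.86 and 2.17 in the controls and 2.17 and 2.46 in G2-EC-KO, a change of 0.29 (SE 0.18, adjusted p 0.586 in limma), so the groups overlapped and the label was not borne out by these levels. At its other probe Gata2 was 1.54 and 1.75 in the controls and 1.72 and 1.91 in G2-EC-KO. The change there was 0.17 (SE 0.14, adjusted p 0.653 in limma), and the groups overlapped too. Whether either probe lies in the deleted part is not given in the sources used here, and G2-EC-KO below stands for the arrays labelled so. The arrays had between 63.8% and 66.5% of probes well above background, and 0 spots were saturated. Control replicate 2 stood apart from the other 3 arrays at sex-linked genes: 7 of 17 Y-linked probes were well above background there and 1 on each other array, while Xist, which is transcribed from the inactive X chromosome, was 3.93, 3.96 and 3.94 on the others and -7.82 there. The 6 endothelial markers (Pecam1, Cdh5, Tie1, Kdr, Emcn and Flt1) were well above background on all 4 arrays, with list medians between 5.53 and 5.73. So were 5 fibroblast, 5 pericyte and smooth muscle and 5 cardiomyocyte markers. Their list medians lay between 2.37 and 3.39, between 3.85 and 4.18 and between 4.02 and 4.63. The part of such cells in the levels below was not tested. The control arrays took the first positions of the slide and the G2-EC-KO arrays the later ones, so the effects of group and position cannot be told apart.

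Ifi202b encodes a HIN protein of the cluster that has no pyrin domain and binds DNA. Its probe (A_51_P151182) was 2.78 and -6.20 on control replicates 1 and 2, and 2.90 and 2.32 on G2-EC-KO replicates 1 and 2. It was therefore high on 3 arrays, and on control replicate 2 alone it was not well above background, with a processed signal of 19.5 against 9687 on control replicate 1, 9597 on G2-EC-KO replicate 1 and 5889 on G2-EC-KO replicate 2. The lowest signal well above background on control replicate 2 was taken as a bound. Control replicate 1 lay 364-fold above it, or 8.51 on the log2 scale. A probe not so marked can lie above such a bound, so it is approximate. The gap between the raw levels, control replicate 2 minus control replicate 1, was -8.98, which is the value that drew attention to these genes. Xist and the peptide transporter gene Slc15a2 had raw gaps of -11.75 and 8.74. In these 3 genes the dimmer control array was not well above background, so their sizes have no order. A gap past 1 log2 unit in either direction was seen for 1.51% of genes. At the counted probes Ifi202b was the only tested member past 1 log2 unit there, and between the G2-EC-KO arrays 0 of 40 were, against 1.89% of genes. At their other probes, Ifit2 was past 1 in both groups and Rsad2 between the G2-EC-KO arrays. Between the G2-EC-KO arrays the Ifi202b gap was -0.58.

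The group change of Ifi202b rests on that array. Over all 4 arrays it was 4.32 (SE 2.98, adjusted p 0.618 in limma), with a 95% confidence interval from -3.55 to 12.2, and the groups overlapped. Without control replicate 2 it was -0.17, and without control replicate 1 it was 8.81. In the latter fit the 1 remaining control value was not well above background. That value also drew attention to these genes, so the size of 8.81 is a description and no test is read from it. The sex-linked genes set control replicate 2 apart from the same 3 arrays, and their relation to the Ifi202b gap was not tested.

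The other Ifi200 genes had smaller control gaps, in both directions. Ifi204, a pyrin and HIN protein of myeloid and interferon-treated cells, has 3 probes. The brightest (A_51_P408343) was 4.82 and 4.21 in the controls and 4.71 and 4.23 in G2-EC-KO, and A_51_P408346 was 3.99 and 3.44 in the controls and 3.79 and 3.33 in G2-EC-KO. Both were lower on replicate 2 than on replicate 1 in each group, by gaps of -0.61 and -0.55 between the control arrays. The third probe, A_52_P83479, was 1.29 and 2.02 in the controls and 1.29 and 1.15 in G2-EC-KO, and its control gap of 0.73 had the opposite sign. The changes were -0.04 (SE 0.28, adjusted p 0.963 in limma) at the first of these probes, -0.16 at the next and -0.43 at the last, so the probes of 1 gene disagreed in the direction of the control gap and had the same sign of change.

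Mnda, a further pyrin and HIN gene, was 4.34 and 4.96 in the controls and 4.31 and 4.12 in G2-EC-KO. Control replicate 2 was the highest of the 4 arrays, and both G2-EC-KO arrays lay below both control arrays. The change was -0.43 (SE 0.24, adjusted p 0.574 in limma) and did not pass the threshold of 0.05. Ifi205 was -2.17 and -1.28 in the controls and -2.28 and -1.89 in G2-EC-KO, lower than the 75th percentile on every array and highest on control replicate 2. Its change was -0.36 (SE 0.34, adjusted p 0.69 in limma), and the groups overlapped. Aim2, the cytosolic DNA sensor that assembles an inflammasome, was not well above background on any array, at levels between -7.90 and -6.72, and so has no change here. Across the 4 tested Ifi200 genes the control gap was below 0 for Ifi202b and Ifi204 and above 0 for Ifi205 and Mnda. Ifi200 genes have similar sequences, and how far the probes cross-hybridise was not tested.

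**Figure D1:**
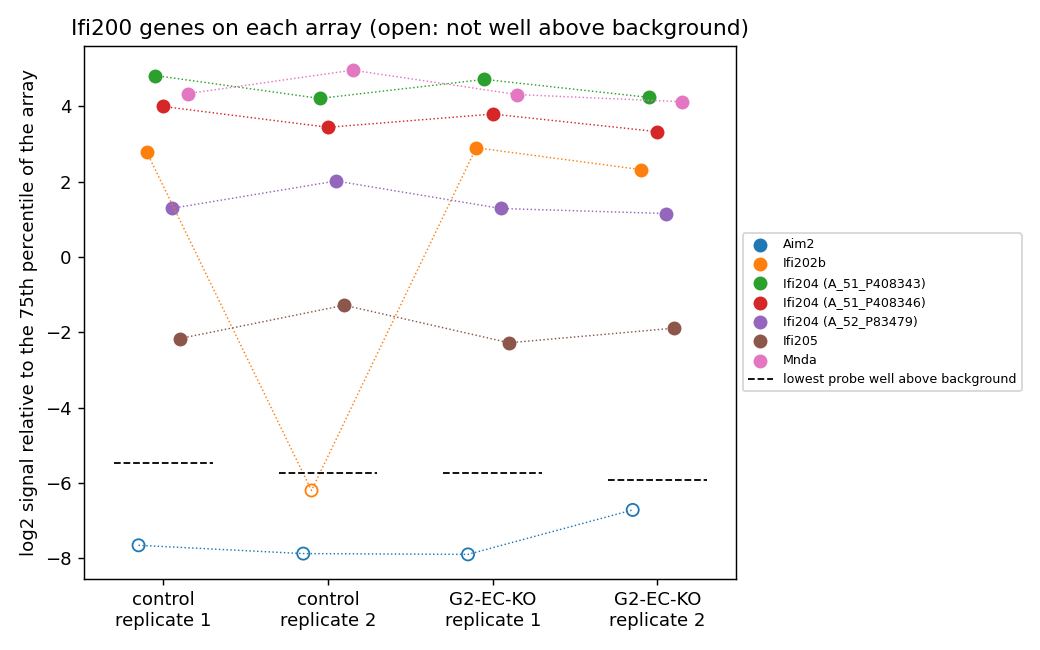
Level of every Ifi200 probe on each of the 4 arrays (vertical axis, log2 signal relative to the 75th percentile of the array), with open circles where the probe was not well above background and a dashed line at the lowest level well above background on that array; dotted lines join the values of 1 probe and show no order in time. Ifi202b lies between 2.32 and 2.90 on 3 arrays and at -6.20 on control replicate 2, while Mnda, Ifi205 and 1 Ifi204 probe are highest there.

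The genes that lie beside the cluster were compared at the same contrast. In the gene order of RefSeq, 11 of the 15 tested genes on one side were well above background on both control arrays. Their gaps lay between -1.08 and 0.38 with a median of -0.15, and 2 of them were past 1 log2 unit, Kcnj10 at -1.02 and Ackr1 at -1.08. Atp1a4, Igsf9, Olfr218 and Fcer1a were not well above background on 1 control array, so their gaps have only a bound. Ackr1 is a chemokine receptor of venular endothelium. The 15 genes on the other side, all well above background on both control arrays, had gaps between -0.23 and 0.74 with a median of 0.18, and none of those 15 was past 1. Ifi213, a further cluster gene that is not on the list of 44, was -2.24 and -2.89 on the control arrays, a gap of -0.64. None of the gaps measured on both control arrays reached the bound for Ifi202b.

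**Figure D2:**
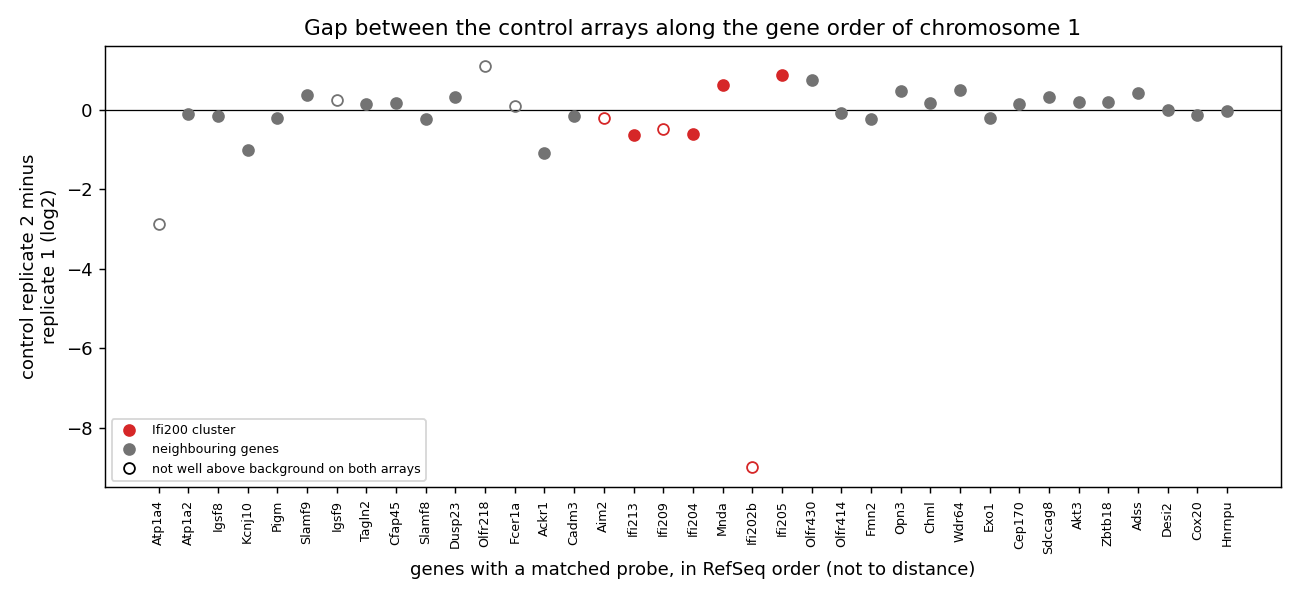
Gap between the control arrays, replicate 2 minus replicate 1 (vertical axis, log2), for the genes of the Ifi200 cluster (red) and the 15 measured genes on each side (grey) in RefSeq gene order along chromosome 1, not to distance; open circles mark probes not well above background on both arrays. Ifi202b at a raw gap of -8.98 lies far below the filled grey points, which run from -1.08 to 0.74; open points are not measured sizes.

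Most of the gaps ran one way. Over the 40 tested genes, 35 (87.5%) were lower on control replicate 2 than on control replicate 1, where 50.1% of all genes tested were, and the median gap was -0.29. This is the contrast that chose the list, and nothing is read from that share. Between the G2-EC-KO arrays, 34 of 40 (85%) were lower on replicate 2, against 45.4% of all genes, with a median gap of -0.34 against 0.03 for all genes. Both gaps were below 0 for 32 of 40 genes (80%), where 24.7% of all genes had both, and since this count holds the control gap, nothing is read from it either. The numbers 1 and 2 are not said to pair samples, so a lower replicate 2 in both groups is a description of 4 arrays. Without Ifi202b the same counts were 34, 33 and 31 of 39, and outside the Ifi200 family 33, 31 and 30 of 36.

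Gaps of more than 0.3 below 0 were found for 20 of 40 genes between the control arrays, where 9.13% of all genes had them, as a description of the contrast behind the list. Between the G2-EC-KO arrays they were found for 22 of 40, where 13.7% of all genes had them. Without Ifi202b, the Pearson correlation of the control gap with the G2-EC-KO gap across 39 genes was 0.58 and Spearman's rho 0.44, as a description of genes that share 4 arrays and that are not independent replicates. At the counted probes, the 8 genes with at least 1 gap above 0 were Ifi205, Mnda, Dhx58, Oas2, Bst2, Ifi44, Ifitm2 and Ifitm3. In bulk RNA, fewer cells that make these transcripts and less transcript in each cell cannot be told apart.

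Markers of blood cells were set beside these gaps. Of the granulocyte markers, S100a8 had gaps, replicate 2 minus replicate 1, of -0.90 between the control arrays and -0.60 between the G2-EC-KO arrays, and S100a9 of -0.93 and -0.57, while Elane was not well above background on any array. The 6 T, B and NK markers had median gaps of -0.41 and -0.25, with list medians between -4.50 and -4.12 over the 4 arrays. The 11 measured macrophage and monocyte markers had a median gap of 0.48 between the control arrays and -0.16 between the G2-EC-KO arrays, and 10 or 11 of them were well above background on each array. Of the 4 measured dendritic markers, Itgax was well above background on all 4 arrays, with gaps of -0.71 and -0.56, Flt3 was so on G2-EC-KO replicate 2 alone, and Siglech and Cd209a were not on any array. The part of these cells in the gaps was not tested.

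**Figure D3:**
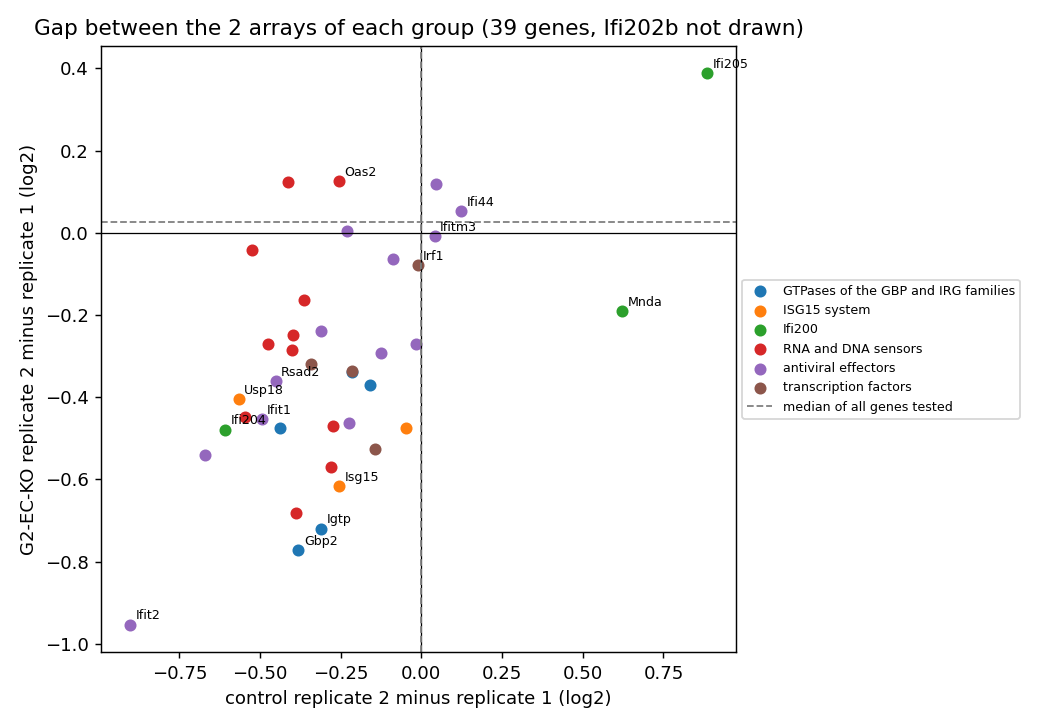
Gap between the 2 control arrays (horizontal axis, log2, replicate 2 minus replicate 1) against the same gap between the 2 G2-EC-KO arrays (vertical axis, log2) for 39 tested genes, coloured by role, with Ifi202b at -8.98 and -0.58 not drawn; dashed lines show the medians of all genes tested. Most points lie below 0 on both axes, 31 of 39, with Ifit2 at the lower left and Ifi205 at the upper right.

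With limma and Benjamini-Hochberg adjustment over all probes, 0 of 40 genes had an adjusted p under 0.05, as did 0% of all genes tested. At an unadjusted p under 0.05 in limma, 1 gene was higher in G2-EC-KO at its counted probe (Ifi44), where 6.13% of all genes were, and 0 were lower, where 2.06% of all genes were. In sign alone, 11 changes were above 0 and 29 below it, while 58.1% of all genes were higher. The median change was -0.08 against 0.04 for all genes, and the median absolute change was 0.16 against 0.14. The split of signs rests on single arrays: 26 were higher without control replicate 1, 6 without control replicate 2, 6 without G2-EC-KO replicate 1 and 29 without G2-EC-KO replicate 2, and the median change was then 0.04, -0.25, -0.24 and 0.06.

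At the counted probes the groups did not overlap for 6 of 40 genes. Ifi44, Bst2 and Ifitm3 were higher on both G2-EC-KO arrays than on both control arrays (7.5% of the 40 genes, against 30.4% of all genes), and Mnda, Stat2 and Trim25 were lower on both (7.5%, against 16.7%). Both shares were below those of all genes.

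Ifi44, an interferon-induced protein of the cytoplasm, was 2.33 and 2.46 in the controls and 3.05 and 3.11 in G2-EC-KO. Both G2-EC-KO arrays lay above both control arrays, and the gaps within the groups were 0.12 and 0.05. The change was 0.68 (SE 0.11, adjusted p 0.387 in limma), with an unadjusted p of 0.00242, and it was between 0.62 and 0.75 with any 1 array left out. The adjusted p ranged from 0.162 to 0.857 over the alternatives. Counts of genes with an unadjusted p under 0.05 in limma are not given with an array left out. No share of all genes stands beside them.

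The sensors of foreign nucleic acids numbered 11, of which 1 had a change above 0 and 10 a change below it. The median change was -0.18, and 0 passed the threshold. All 11 were lower on control replicate 2 than on replicate 1, and 9 of 11 on G2-EC-KO replicate 2. Oasl1, which represses translation of Irf7, was 4.25 and 3.86 in the controls and 4.12 and 3.44 in G2-EC-KO. Its lowest level was on G2-EC-KO replicate 2, and the groups overlapped, with a change of -0.28 (SE 0.28, adjusted p 0.708 in limma). Oasl2, a ubiquitin-like relative, was 3.86 and 3.39 in the controls and 3.59 and 3.32 in G2-EC-KO, and its change of -0.17 (SE 0.21, adjusted p 0.758 in limma) lay within the spread of the replicates. Oas2, a synthase of the 2'-5' oligoadenylates that activate RNase L, was 3.23 and 2.98 in the controls and 2.92 and 3.05 in G2-EC-KO. Here G2-EC-KO replicate 2 was the higher of its group, and the change was -0.12 (SE 0.14, adjusted p 0.748 in limma). The other Oas2 probe was -1.91 and -2.09 in the controls and -2.14 and -2.35 in G2-EC-KO. There G2-EC-KO replicate 2 was the lower of its group, and both G2-EC-KO arrays lay below both control arrays. The change at that probe was -0.24 (SE 0.14, adjusted p 0.578 in limma).

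The RNA helicases Ddx58 (RIG-I) and Ifih1 (MDA5), which signal through MAVS, had changes of -0.24 (SE 0.23, adjusted p 0.698 in limma) and -0.18 (SE 0.21, adjusted p 0.744 in limma) at their brightest probes, and all 4 Ddx58 probes had changes below 0. At 1 of them, A_52_P523946, the change was -0.44 with an unadjusted p of 0.0351 and an adjusted p of 0.503 in limma. Dhx58 (LGP2), their regulator, was the 1 sensor with a change above 0, at 0.13 (SE 0.18). Eif2ak2, the kinase PKR that halts translation on double-stranded RNA, Zbp1, a sensor of Z-form nucleic acids, and Adar, which edits adenosine in double-stranded RNA, had changes of -0.09, -0.02 and -0.19. Zbp1 was at or below the 75th percentile on every array, between -0.54 and -0.01.

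Of the 4 transcription factors, 1 was higher and 3 were lower, with a median change of -0.16. Irf1, an activator induced by interferon gamma, was 7.75 and 7.74 in the controls and 7.81 and 7.74 in G2-EC-KO at its brighter probe. The 4 levels lay between 7.74 and 7.81, and the change was 0.03 (SE 0.11, adjusted p 0.92 in limma). Its other probe was 4.77 and 4.52 in the controls and 4.55 and 4.11 in G2-EC-KO, with a change of -0.31, so the sign depends on the probe. Irf9, the DNA-binding part of a complex that holds STAT2, was 3.78 and 3.56 in the controls and 3.61 and 3.27 in G2-EC-KO, a change of -0.23 (SE 0.17, adjusted p 0.631 in limma) with overlapping groups. Irf7, which drives interferon alpha genes, was 3.70 and 3.36 in the controls and 3.60 and 3.28 in G2-EC-KO, a change of -0.08 (SE 0.19, adjusted p 0.871 in limma). Stat2 was 3.03 and 2.88 in the controls and 2.80 and 2.27 in G2-EC-KO. Its G2-EC-KO levels lay below both control levels and far apart from each other, and the change was -0.42 (SE 0.21, adjusted p 0.553 in limma).

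Of the 15 antiviral effectors 13 were tested, 7 higher and 6 lower, with a median change of 0.04. The IFIT proteins bind viral RNA and block its translation. Ifit2 was 3.74 and 2.84 in the controls and 3.59 and 2.63 in G2-EC-KO, and its second probe was 2.59 and 1.46 in the controls and 2.19 and 1.17 in G2-EC-KO. Both probes were high on replicate 1 and low on replicate 2 of each group, with gaps of -0.90 and -0.95 at the counted probe and -1.13 and -1.02 at the other, the widest of any member besides Ifi202b at the counted probes. Its change was -0.18 (SE 0.45, adjusted p 0.884 in limma). Ifit3 was 4.76 and 4.09 in the controls and 4.73 and 4.19 in G2-EC-KO, and Ifit1 was 4.92 and 4.43 in the controls and 5.05 and 4.59 in G2-EC-KO. They showed the same high and low arrays, with changes of 0.04 and 0.14 that were smaller than the gaps within groups.

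Rsad2 encodes viperin, an enzyme that makes a chain-terminating nucleotide. Its brightest probe was 5.07 and 4.62 in the controls and 5.12 and 4.76 in G2-EC-KO, a change of 0.09 (SE 0.22, adjusted p 0.879 in limma). A further probe, A_51_P505132, was 2.89 and 2.25 in the controls and 2.71 and 1.56 in G2-EC-KO, a change of -0.44, and the remaining one had a change of -0.48, so the 3 probes did not share a sign. Each was lower on replicate 2 than on replicate 1 in both groups.

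The IFITM proteins, which block fusion of enveloped viruses, varied little across the arrays. Ifitm3 was 6.83 and 6.87 in the controls and 6.92 and 6.92 in G2-EC-KO, a change of 0.07 (SE 0.10, adjusted p 0.798 in limma), which did not pass the threshold although the groups did not overlap. Ifitm1 and Ifitm2 had changes of -0.05 and 0.08. Bst2, or tetherin, which holds budding virions at the cell surface, was 5.16 and 4.93 in the controls and 5.30 and 5.31 in G2-EC-KO. Both G2-EC-KO levels were above both control levels, by a change of 0.26 (SE 0.13, adjusted p 0.551 in limma), which did not pass the threshold. Rtp4 was 5.74 and 5.61 in the controls and 5.78 and 5.49 in G2-EC-KO, a change of -0.04 (SE 0.15, adjusted p 0.923 in limma). Isg20, an RNA exonuclease, Ifi35 and Xaf1, a partner of the apoptosis inhibitor XIAP, had changes of -0.05, -0.05 and -0.02.

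In the ISG15 system, 1 gene was higher and 2 were lower. Isg15, the ubiquitin-like modifier itself, was 6.05 and 5.80 in the controls and 5.97 and 5.36 in G2-EC-KO. G2-EC-KO replicate 2 was the lowest array, the groups overlapped, and the change was -0.26 (SE 0.24, adjusted p 0.695 in limma). Trim25, a ligase that attaches ubiquitin and ISG15, was 5.32 and 5.27 in the controls and 5.17 and 4.69 in G2-EC-KO. At this counted probe both G2-EC-KO arrays were below both control arrays, with a change of -0.36 (SE 0.19, adjusted p 0.565 in limma). Its other probe was 2.39 and 2.79 in the controls and 2.54 and 1.88 in G2-EC-KO. There the groups overlapped, with a change of -0.38. Usp18, which removes ISG15 and damps the interferon receptor, was 3.56 and 2.99 in the controls and 3.52 and 3.11 in G2-EC-KO, a change of 0.04 (SE 0.25, adjusted p 0.952 in limma).

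The 5 GTPases, which attack the vacuoles of intracellular pathogens, were all lower in sign, with a median change of -0.18, and all 5 were lower on replicate 2 in both groups. Iigp1 was 7.32 and 7.16 in the controls and 7.39 and 7.02 in G2-EC-KO, a change of -0.03 (SE 0.17, adjusted p 0.954 in limma). Irgm1, a regulator of the family, was 6.52 and 6.30 in the controls and 6.51 and 6.17 in G2-EC-KO, a change of -0.07 (SE 0.17, adjusted p 0.873 in limma). Gbp2 was 6.22 and 5.84 in the controls and 6.12 and 5.35 in G2-EC-KO. Its lowest level, on G2-EC-KO replicate 2, lay below the rest by more than the group change of -0.30 (SE 0.30, adjusted p 0.71 in limma). Gbp3 and Igtp had changes of -0.18 and -0.30.

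**Figure D4:**
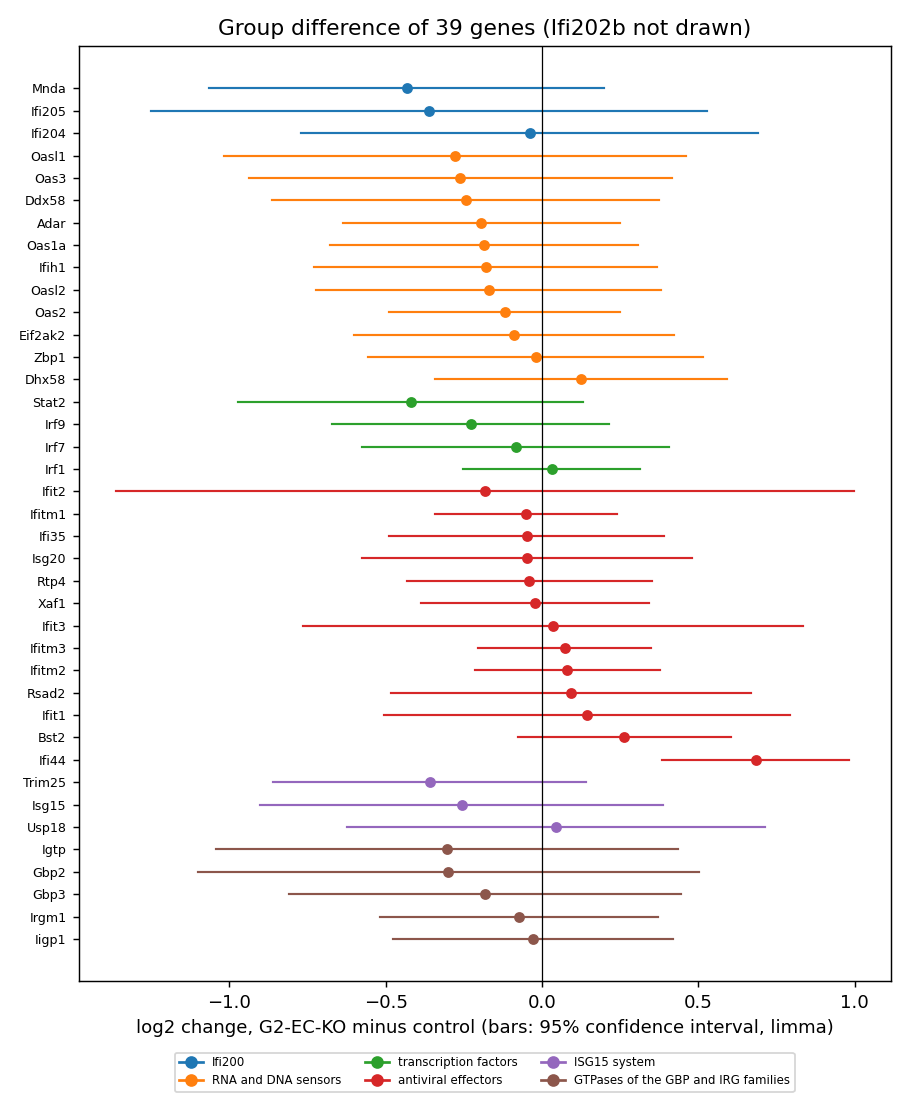
Change of each of 39 tested genes, G2-EC-KO minus control (horizontal axis, log2), with 95% confidence intervals from limma, coloured and ordered by role; Ifi202b, with a change of 4.32 and an interval from -3.55 to 12.2, is not drawn. Of the intervals drawn, that of Ifi44 is the only one that leaves out 0.

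Members were then grouped by the promoter letters, as a description. The 22 tested genes with an interferon-stimulated core in a listed promoter had median gaps of -0.28 between the control arrays and -0.41 between the G2-EC-KO arrays, and a median change of -0.18, with 7 genes higher. The 11 tested genes whose listed promoters lack the core had median gaps of -0.31 and -0.32 and a median change of -0.05, with 2 higher. All 11 of the latter were lower on replicate 2 in both groups. Of the former, 17 of 22 were lower between the control arrays and 18 of 22 between the G2-EC-KO arrays. Of all genes tested, 50.1% were lower on control replicate 2 and 45.4% on G2-EC-KO replicate 2. The control contrast chose the list, so nothing is read from its counts. Among genes without the core, no listed start of Ifit2, Ifitm1, Irf7, Isg20, Oasl1, Oasl2 or Xaf1 is the gene start of RefSeq. The same holds for some genes with the core, so the split may depend on the starts listed.

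In limma, 0 of 66 tested genes of the other pathway lists had an adjusted p under 0.05. At an unadjusted p under 0.05 in limma, 4 of them (6.06%) were higher in G2-EC-KO, Ifna2, Tlr7, Ifi27l2a and Epsti1, and 0 were lower, so the share was close to the 6.13% of all genes that were higher. Of 9 listed ligands 2 were tested. Ifna2 was -5.78 and -6.31 in the controls, not well above background on either, and -5.47 and -5.46 in G2-EC-KO. Its change was 0.58 (SE 0.20, adjusted p 0.511 in limma), computed with control levels that are only bounds. Against the lowest levels well above background on the control arrays, Ifna2 was 1.10-fold higher. It passed the filter through the G2-EC-KO arrays alone, so nothing is read from its place in the count above. Ifng, the type of interferon made by T and NK cells, was -5.27 and -5.10 in the controls and -5.50 and -8.16 in G2-EC-KO, where replicate 2 was not well above background. Its change was -1.64 (SE 0.89, adjusted p 0.568 in limma), computed with a level on that array that is only a bound. Of 12 receptor and signalling genes, all tested, 7 were higher and 5 lower, and 5 were lower on control replicate 2 and 3 on G2-EC-KO replicate 2. The brightest was Socs3, a feedback inhibitor of cytokine receptors, at 7.29 and 7.29 in the controls and 7.27 and 7.11 in G2-EC-KO, a change of -0.10 (SE 0.12, adjusted p 0.739 in limma). Of 15 sensing and adaptor genes 7 were higher and 8 lower, and 12 and 9 were lower on replicate 2 of the control and G2-EC-KO arrays. Tlr7, an endosomal receptor for single-stranded RNA, was -4.46 and -4.00 in the controls and -3.72 and -3.77 in G2-EC-KO, a change of 0.49 (SE 0.18, adjusted p 0.519 in limma). Cgas, the cytosolic DNA sensor, was 1.63 and 1.01 in the controls and 1.43 and 0.87 in G2-EC-KO, with replicate 2 lower in each group and a change of -0.17 (SE 0.30, adjusted p 0.831 in limma).

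A further 39 interferon-induced genes, of which 36 were tested, had 16 changes above 0 and 20 below it, with 0 past the adjusted threshold. Of these, 31 of 36 were lower on control replicate 2 and 27 of 36 on G2-EC-KO replicate 2, with median gaps of -0.23 and -0.12. Ifi27l2a was 3.23 and 2.87 in the controls and 3.60 and 3.78 in G2-EC-KO. The groups did not overlap, and the change of 0.64 (SE 0.17, adjusted p 0.435 in limma) did not pass the threshold. Epsti1 was -4.93 and -4.56 in the controls and -4.22 and -4.16 in G2-EC-KO, a change of 0.55 (SE 0.16, adjusted p 0.467 in limma).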

How the data were processed

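Per the labels' protocols, total RNA was labelled with Cy3, and each sample was hybridised to 1 Agilent array. The authors deposited spot intensity values on a linear scale. Per the file headers the design is 014868, annotated on mm9, and Feature Extraction 10.7.3.1 subtracted background and a spatial trend with no scaling between arrays (the submitters' processing notes name 10.5). The deposited value table is the median signal minus the local background plus 16 in every row and served as an alternative.

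Control spots and 90, 101, 87 and 99 outlier spots were left out. Levels are log2 processed signals minus the 75th percentile, averaged per probe. Accessions in RefSeq (GRCm38.p6) named 26933 of 41174 non-control probes. Tests took the 26893 named or unnamed probes that were well above background on 2 or more arrays. They used limma 3.58.1 in R 4.3.3 (lmFit and eBayes on group, two-sided, Benjamini-Hochberg at 0.05), with 2 residual and 2.58 prior degrees of freedom and a median SE of 0.136. An exact permutation test of 2 against 2 cannot go below p = 0.333. The number of arrays limits the precision. The fit was also run on simulated data with planted changes, whose outcome is not reported here, so nothing is read from it.

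A gene was counted through its probe with the highest mean. Values on every array were given for listed members: Ifi200 genes, those with an unadjusted p under 0.05, those with a gap past 1 log2 unit within a group, and the 1 to 3 brightest of each role. Of other pathway genes they were given for those with an unadjusted p under 0.05 and some of the brightest. Stat2, Ifit1, Ifit2, Ifit3, Rsad2, Cgas, Ifng, Xist, Slc15a2 and the named neighbours were added after their values were seen. The members, lists and roles were chosen with earlier results of these data known. Alternatives were normexp background correction (offset 50, on median rather than mean spot signal), quantile normalization, median centring, other filters, the value table floored at 1, an intensity trend, a replicate block, leaving out each array and averaging probes. Same-numbered samples share only a number, since the labels do not say that the numbers pair samples.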

Additional observations from a re-analysis of the deposited data

How the results depend on the processing

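In every alternative that kept all 4 arrays, 0 of the members passed the adjusted threshold in limma, between 9 and 12 were higher in G2-EC-KO and the median change stayed between -0.15 and -0.06. The replicate block gave 0 calls, 11 genes higher, 1 gene with an unadjusted p under 0.05 and a median change of -0.08, so the block changed no call. Same-numbered deviations over all probes had a correlation of 0.0439, with only 2 pairs. An intensity trend gave 2 genes with an unadjusted p under 0.05 in limma in place of 1, a count with no share of all genes beside it. Leaving out 1 array gave 6 to 29 genes higher and a median change from -0.25 to 0.06. In those fits an arm left with 1 array was assumed to vary like the other group. The Ifi202b gap between the control arrays was -6.80 with normexp and -7.97 with the deposited values. The median gap ranged from -0.33 to -0.25 between the control arrays and from -0.36 to -0.28 between the G2-EC-KO arrays, the latter under settings chosen after seeing the data, as was the median change of -0.08 without Ifi202b.

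Of 21 named results, 14 changed sign at least once and 7 kept it. Irf1 turned to -0.059 with quantile normalization and -0.14 with all its probes averaged. With 1 array left out, changes ranged from -0.17 to 8.81 for Ifi202b, -0.34 to 0.27 for Ifi204, -0.80 to 0.081 for Ifi205, -0.62 to 0.062 for Oasl1, -0.41 to 0.066 for Oasl2, -0.25 to 0.0081 for Oas2, -0.0085 to 0.070 for Irf1, -0.25 to 0.086 for Irf7, -0.19 to 0.11 for Rtp4, -0.57 to 0.052 for Isg15, -0.24 to 0.33 for Usp18, -0.21 to 0.16 for Iigp1, -0.24 to 0.095 for Irgm1 and -0.69 to 0.086 for Gbp2. Apart from the arrays left out, the cause was not tested. Probes not well above background, such as Ifi202b on control replicate 2, have only a bound.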
